A study of Mus musculus with 17 samples.

Results

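The R-spondin and Lgr receptor module comprised 10 genes: the ligands Rspo1, Rspo2, Rspo3 and Rspo4, the receptors Lgr4, Lgr5 and Lgr6, the membrane ubiquitin ligases Rnf43 and Znrf3, and the receptor Tnfrsf19. Members were chosen by symbol, and each matched 1 of the 24432 gene IDs in the expression table. The members and the gene lists used below were chosen with earlier results of these data known. R-spondins are secreted proteins that strengthen Wnt signalling. They bind Lgr receptors and draw Rnf43 and Znrf3 away from the cell surface, where these ligases otherwise mark Frizzled receptors for degradation. Rnf43, Znrf3, Lgr5 and Tnfrsf19 are known targets of beta-catenin in several epithelia, and Rspo1 and Rspo3 are known to support nephron progenitors in the embryonic kidney.

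RNA was sequenced from whole dissected kidneys of mouse embryos of mixed strain at E12.5, in 17 libraries. The genotype Ctnnb1-delta3 c/+;Foxd1 (5 libraries, Foxd1-Cre kidneys) carries the inducible active allele of beta-catenin, CTNNB1 ex3/+, with Foxd1Cre, which is active in the stromal lineage. Ctnnb1-delta3 c/+;Six2 (3 libraries, Six2-Cre kidneys) carries the same allele with Six2Cre, active in the nephron progenitor lineage. The 9 Wild-type libraries were replicates 1 to 6, set against Foxd1-Cre kidneys, and replicates 7 to 9, set against Six2-Cre kidneys, and the labels do not say whether these embryos carried Cre alone. The labels also do not give the number of embryos behind a library, so p-values measure only the spread between these libraries, which may be technical. All other cell types of the kidney are in these samples, so fewer cells of a type and less RNA per cell cannot be told apart.

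The 11 libraries of the Foxd1-Cre comparison were deeper, at roughly 28800000 to 37500000 reads estimated from the smallest steps in the values, than the 6 of the Six2-Cre comparison, at 5400000 to 5900000. Mutant effects were therefore measured only against the wild types of the same depth, and levels set across the comparisons cannot be told apart from the difference in depth. Values are FPKM, which count fragments per length of transcript and per depth of the library. Changes are differences of log2(FPKM + 1), which understate the change of low genes, and were tested with limma, with Benjamini-Hochberg adjustment over all genes that passed a filter on low values. A gene rose or fell where the adjusted p was under 0.05. Foxd1 changed by -2.32 ± 0.10 (SE, adjusted p = 1.9e-08) in Foxd1-Cre kidneys and Six2 by -2.10 ± 0.08 (SE, adjusted p = 1.5e-04) in Six2-Cre kidneys. Ctnnb1 changed by 0.14 ± 0.05 (SE, adjusted p = 0.105) and 0.24 ± 0.05 (SE, adjusted p = 0.0213), and a value for the whole gene cannot check an allele that lacks an exon.

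Of the 10 genes, 8 passed the filter, and Rspo2 and Rspo4 did not. In Foxd1-Cre kidneys 4 of the 8 rose (Lgr4, Rnf43, Znrf3 and Tnfrsf19) and 0 fell, beside 8.45% of all 13996 genes tested that rose and 4.82% that fell. In Six2-Cre kidneys 1 rose (Tnfrsf19) and 4 fell (Rspo1, Rspo3, Lgr4 and Rnf43), beside 7.93% and 5.84% of 13828 genes. The median log2 change of the 8 was 0.34 and -0.37, against -0.008 and -0.009 over all genes tested. None of the called changes rested on overlapping groups: every mutant library lay on one side of every wild-type library. Such separation was found at 10.7% of all genes in the Foxd1-Cre comparison (6.89% with the mutant higher and 3.80% lower). In the Six2-Cre comparison, which has fewer libraries, it was found at 35.7% (18.0% higher and 17.7% lower).

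**Figure D1:**
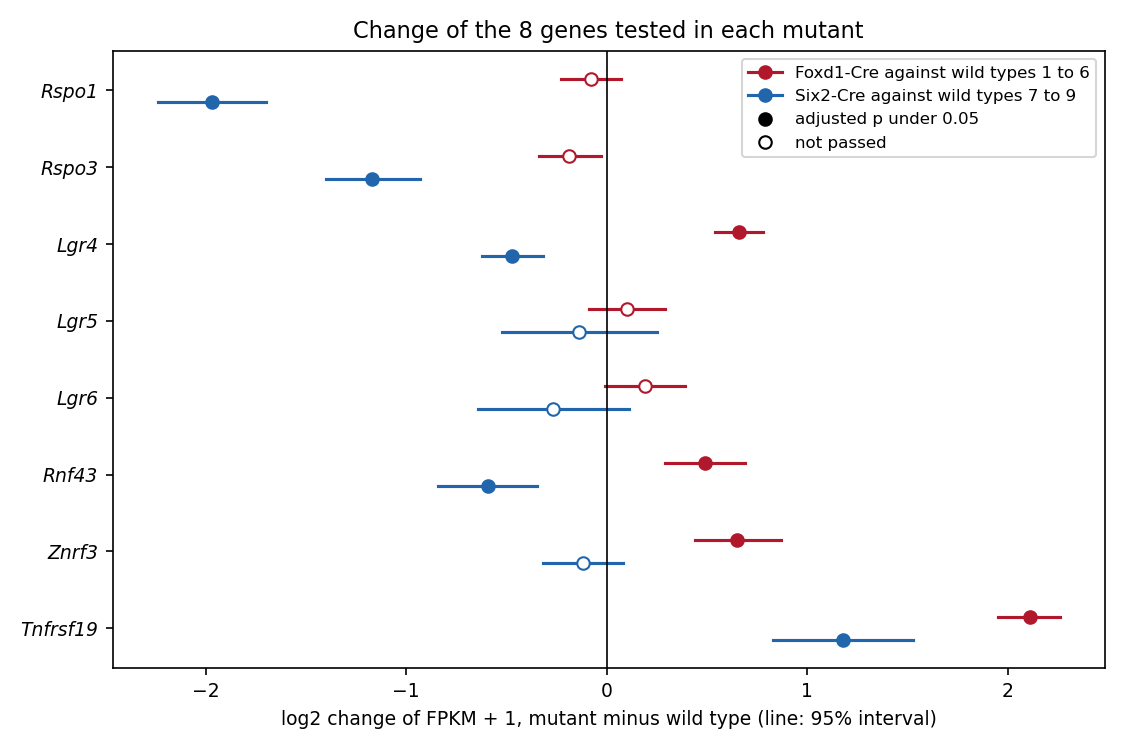
Change of the 8 tested genes in log2(FPKM + 1), mutant minus wild type, with 95% intervals as lines, for Foxd1-Cre (red, 5 against 6 libraries) and Six2-Cre kidneys (blue, 3 against 3), filled where the adjusted p was under 0.05. Lgr4 and Rnf43 lie above 0 in one mutant and below 0 in the other, while Tnfrsf19 lies above 0 in both.

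The ligands differed between the mutants. Rspo1 (ENSMUSG00000028871, GRCm38 chromosome 4, 124986430 to 125009099, plus strand) had the highest mean FPKM of the R-spondins in both sets of wild types. In Six2-Cre kidneys Rspo1 was at 4.99, 4.50 and 4.28 FPKM in replicates 1 to 3, and in wild types 7 to 9 at 21.7, 23.4 and 17.9 FPKM. All 3 mutant libraries were far below the lowest wild type. Rspo1 fell by 1.97 ± 0.11 (SE) on the log2 scale (adjusted p = 5.4e-04), a 4.57-fold lower mean FPKM. In Foxd1-Cre kidneys Rspo1 was at 37.3, 33.1, 30.9, 35.6 and 35.3 FPKM. The 6 wild types ran from 31.8 to 41.8 FPKM with a median of 36.3, so the groups overlapped. The change of -0.08 ± 0.07 (SE, 95% interval -0.23 to 0.07, adjusted p = 0.517) did not pass the test.

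Rspo3 (ENSMUSG00000019880, chromosome 10, 29452416 to 29535867, minus strand), the other R-spondin found at more than 1 FPKM, was lower in Six2-Cre kidneys as well. Its values were 8.01, 6.55 and 8.28 FPKM there and 18.3, 19.2 and 17.3 FPKM in wild types 7 to 9. The groups were apart, and Rspo3 fell by 1.17 ± 0.10 (SE, adjusted p = 0.00162), a 2.40-fold lower mean. In Foxd1-Cre kidneys Rspo3 was at 12.7, 15.9, 13.8, 13.3 and 13.3 FPKM, against a range of 13.6 to 17.7 FPKM and a median of 15.7 in wild types 1 to 6. Replicates 2 and 3 lay within the wild-type range and the other 3 below it. The change was -0.19 ± 0.07 (SE, adjusted p = 0.107). It passed the test at -0.23 without Foxd1-Cre replicate 2 (adjusted p = 0.0366) or without wild type 1 (adjusted p = 0.0388).

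Summed over the 4 ligands, R-spondin FPKM ran from 11.9 to 13.4 in Six2-Cre kidneys and from 35.4 to 42.8 in wild types 7 to 9. In Foxd1-Cre kidneys the sum ran from 45.5 to 50.7, inside the range of 45.6 to 58.9 in wild types 1 to 6 for all but the lowest library. The makeup of the sum was also different in Six2-Cre kidneys. Rspo1 gave 35.7 ± 3.33% (SD, n = 3) of it there and 52.8 ± 2.05% (SD, n = 3) in wild types 7 to 9. Rspo3 gave 58.9 ± 3.48% and 46.2 ± 2.23% (SD, n = 3 each). The share of Rspo1 was 70.5 ± 2.87% (SD, n = 5) in Foxd1-Cre kidneys and 69.4 ± 0.959% (SD, n = 6) in their wild types.

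**Figure D2:**
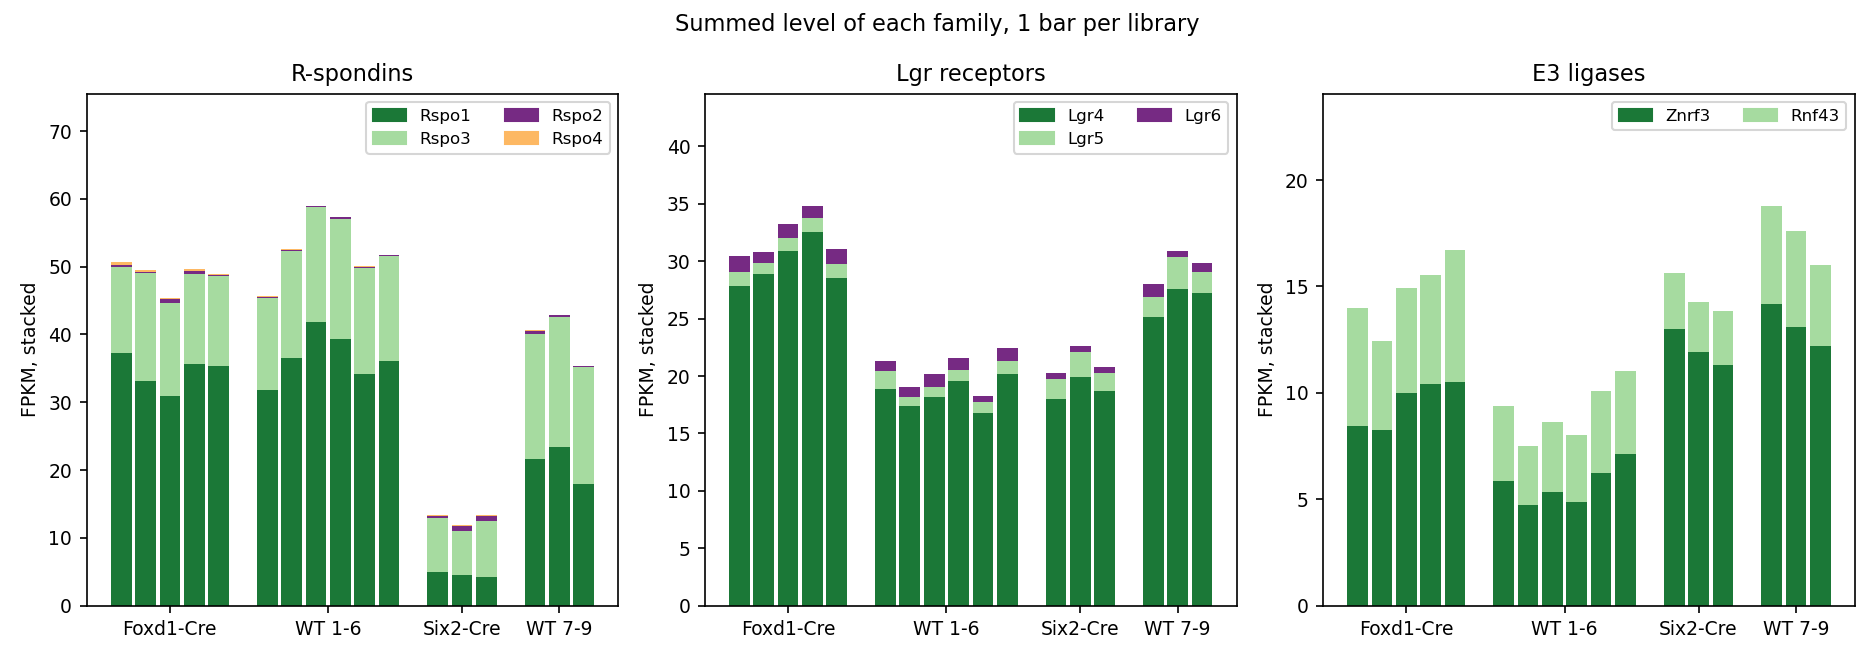
Summed FPKM of the R-spondins, the Lgr receptors and the ligase pair Rnf43 and Znrf3, stacked by gene with 1 bar per library (WT, wild types). The R-spondin sum is 11.9 to 13.4 FPKM in Six2-Cre kidneys against 35.4 to 42.8 in their wild types, and the Lgr sum is nearly all Lgr4 in every group.

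Rspo2 and Rspo4 were scarcely detected. Rspo2 (ENSMUSG00000051920, chromosome 15, 43020794 to 43170826, minus strand) was at 0.321, 0.273, 0.491, 0.529 and 0.240 FPKM in Foxd1-Cre kidneys and between 0.0808 and 0.301 FPKM in wild types 1 to 6. These values stand for about 9 to 53 reads, and the groups overlapped. In Six2-Cre kidneys it was at 0.248, 0.665 and 0.674 FPKM against 0.522, 0.233 and 0.220 FPKM, or 4 to 13 reads. Rspo4 (ENSMUSG00000032852, chromosome 2, 151842927 to 151874668, plus strand) was at 0.370, 0.188, 0.233, 0.202 and 0.128 FPKM in Foxd1-Cre kidneys and from 0.0546 to 0.184 FPKM, with a median of 0.0803, in wild types 1 to 6. In Six2-Cre kidneys it was at 0.0770, 0.206 and 0.209 FPKM, while wild type 7 was at 0.139 and wild types 8 and 9 were listed at 0. A fit without the filter gave Rspo2 a change of 0.24 ± 0.07 (SE, adjusted p = 0.0472) and Rspo4 one of 0.16 ± 0.05 (SE, adjusted p = 0.0504) in Foxd1-Cre kidneys. The same fit gave adjusted p = 0.501 and 0.318 in Six2-Cre kidneys.

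Among the receptors, Lgr4 moved in opposite directions in the mutants. Lgr4 (ENSMUSG00000050199, chromosome 2, 109917647 to 110014257, plus strand) gave from 87.9 to 93.9% of the summed Lgr FPKM in every library. In Foxd1-Cre kidneys it was at 27.8, 28.9, 30.9, 32.5 and 28.5 FPKM, and in wild types 1 to 6 it ran from 16.8 to 20.2 FPKM with a median of 18.5. All 5 mutant libraries were above all 6 wild types. Lgr4 rose by 0.66 ± 0.05 (SE, adjusted p = 7.2e-06), a 1.61-fold higher mean. The Six2-Cre libraries were at 18.0, 19.9 and 18.7 FPKM, below the 25.1, 27.6 and 27.2 FPKM of wild types 7 to 9. It fell by 0.47 ± 0.06 (SE, adjusted p = 0.00601), a 1.41-fold lower mean. That fall ended against all 9 wild types (-0.14, adjusted p = 0.396), of which wild types 7 to 9 were all above wild types 1 to 6.

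Lgr5 and Lgr6 were low, and neither passed the test in either mutant. Lgr5 (ENSMUSG00000020140, chromosome 10, 115450311 to 115587780, minus strand), the stem cell receptor of the gut, was at 1.26, 0.978, 1.09, 1.24 and 1.23 FPKM in Foxd1-Cre kidneys. Wild types 1 to 6 ran from 0.777 to 1.53 FPKM with a median of 0.940, a range that holds all 5 mutant values. The change was 0.10 ± 0.09 (SE, 95% interval -0.09 to 0.29, adjusted p = 0.527). In Six2-Cre kidneys Lgr5 was at 1.76, 2.15 and 1.54 FPKM against 1.76, 2.74 and 1.84 FPKM, a change of -0.14 ± 0.16 (SE, 95% interval -0.52 to 0.25, adjusted p = 0.623). About 44 to 75 reads stood behind each of these 6 values. Without wild type 8, the highest of the 6, the change was 0.00.

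Lgr6 (ENSMUSG00000042793, chromosome 1, 134983301 to 135105276, minus strand), a further R-spondin receptor, was at 1.35, 0.899, 1.26, 1.08 and 1.36 FPKM in Foxd1-Cre kidneys. In wild types 1 to 6 it ran from 0.549 to 1.14 FPKM with a median of 0.948. Replicates 1, 3 and 5 lay above every wild type, and the change was 0.19 ± 0.09 (SE, 95% interval -0.01 to 0.39, adjusted p = 0.213). In Six2-Cre kidneys it was at 0.475, 0.599 and 0.520 FPKM against 1.15, 0.577 and 0.839 FPKM. The groups overlapped at wild type 8, and the change was -0.27 ± 0.16 (SE, 95% interval -0.64 to 0.11, adjusted p = 0.312). About 17 to 45 reads stood behind each of these 6 values.

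**Figure D3:**
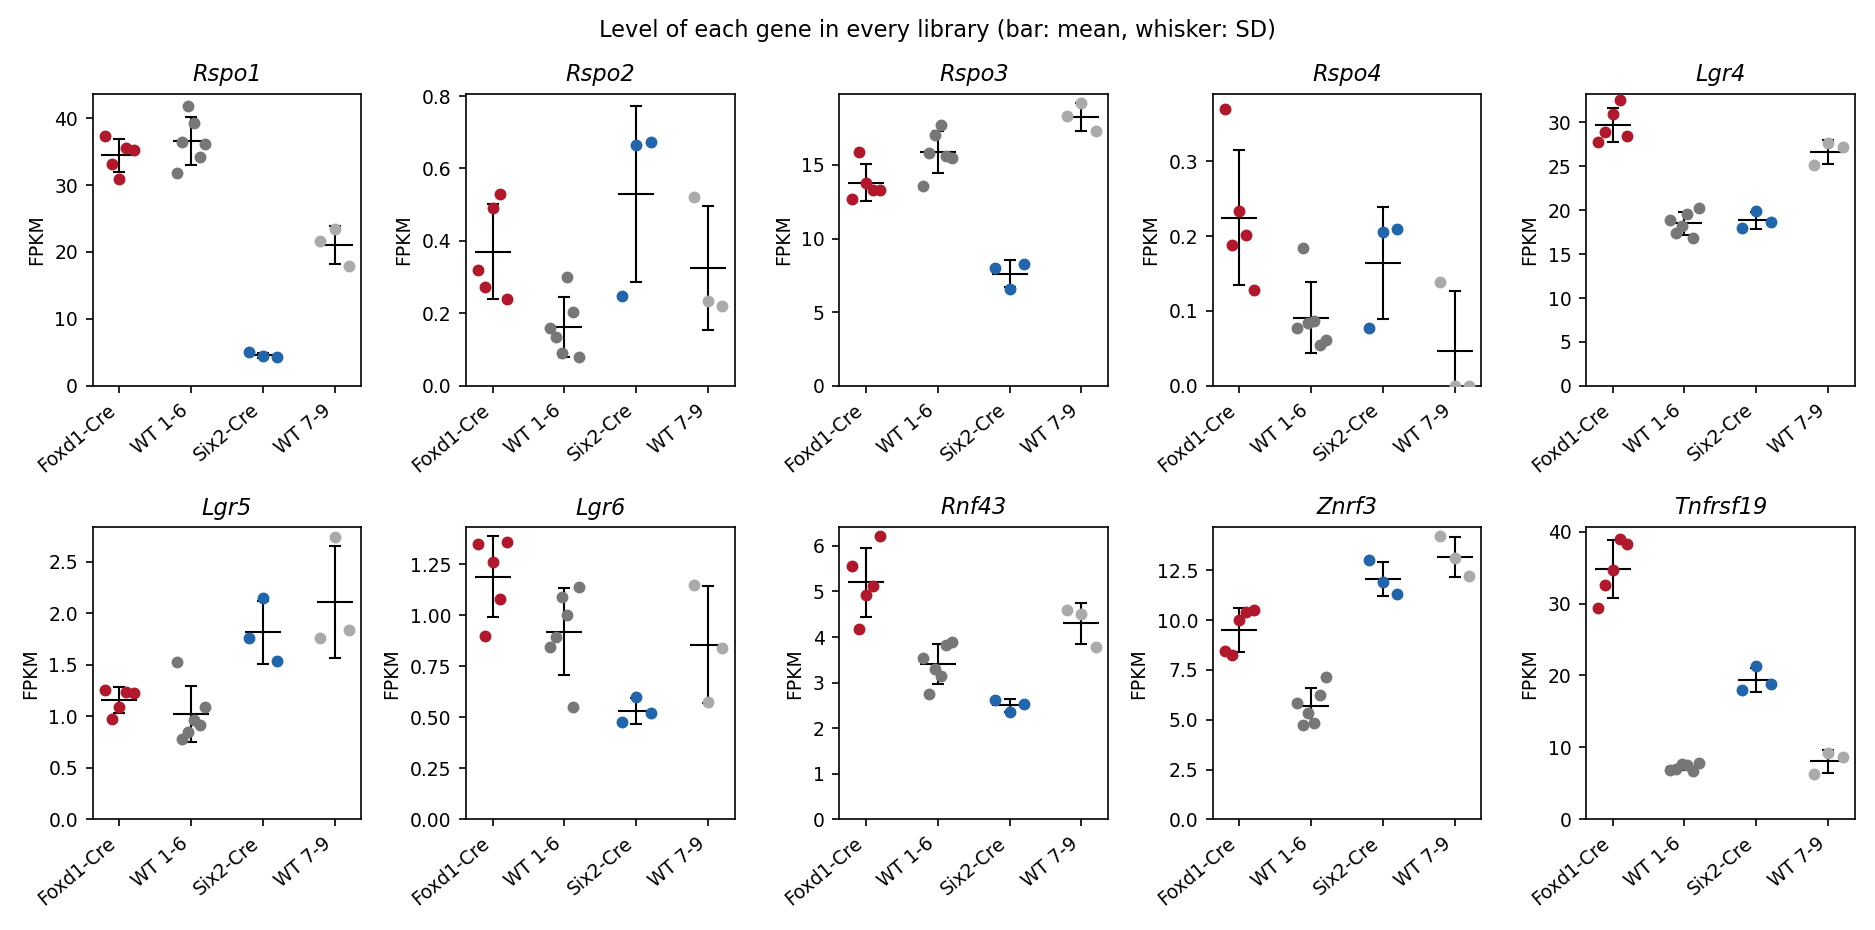
FPKM of each of the 10 genes in every library (points) with the group mean (horizontal bar) and SD (whiskers), for Foxd1-Cre, wild types (WT) 1 to 6, Six2-Cre and wild types 7 to 9. Tnfrsf19 is higher in both mutants, Rspo1 and Rspo3 are lower in Six2-Cre kidneys, and Znrf3 is higher in wild types 7 to 9 than in wild types 1 to 6.

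The ligases both rose in Foxd1-Cre kidneys, and Rnf43 but not Znrf3 passed the test in Six2-Cre kidneys. Rnf43 (ENSMUSG00000034177, chromosome 11, 87662722 to 87735539, plus strand) was at 5.55, 4.18, 4.93, 5.12 and 6.22 FPKM in Foxd1-Cre kidneys. Wild types 1 to 6 ran from 2.74 to 3.89 FPKM with a median of 3.42, below every mutant library. Rnf43 rose by 0.49 ± 0.09 (SE, adjusted p = 0.00377), a 1.52-fold higher mean. With Six2Cre its values were 2.62, 2.35 and 2.54 FPKM, below the 4.59, 4.51 and 3.79 FPKM of wild types 7 to 9. It fell by 0.59 ± 0.10 (SE, adjusted p = 0.0147), a 1.71-fold lower mean. The fall missed the threshold without Six2-Cre replicate 2 (-0.56, adjusted p = 0.0549) or 3 (-0.60, adjusted p = 0.0543), and without wild type 7 (-0.55, adjusted p = 0.0522) or 8 (-0.56, adjusted p = 0.0565).

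Znrf3 (ENSMUSG00000041961, chromosome 11, 5276324 to 5444847, minus strand), the close relative of Rnf43, was at 8.43, 8.24, 10.03, 10.4 and 10.5 FPKM in Foxd1-Cre kidneys. In wild types 1 to 6 it ran from 4.75 to 7.14 FPKM with a median of 5.59. No mutant library was as low as the highest wild type. Znrf3 rose by 0.65 ± 0.10 (SE, adjusted p = 8.1e-04), a 1.67-fold higher mean, and the call ended against all 9 wild types (0.29, adjusted p = 0.435). In Six2-Cre kidneys Znrf3 was at 13.0, 11.9 and 11.3 FPKM against 14.2, 13.1 and 12.2 FPKM. The groups overlapped, and the change was -0.12 ± 0.08 (SE, 95% interval -0.32 to 0.08, adjusted p = 0.381). Rnf43 gave 17.2 ± 0.941% (SD, n = 3) of the summed FPKM of both ligases in Six2-Cre kidneys and 24.5 ± 0.926% (SD, n = 3) in their wild types. Its share was 35.3 ± 3.03% (SD, n = 5) in Foxd1-Cre kidneys and 37.5 ± 1.42% (SD, n = 6) in theirs.

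Tnfrsf19 (ENSMUSG00000060548, chromosome 14, 60963875 to 61046490, minus strand), a receptor of the tumour necrosis factor receptor family also called Troy, was the only one of the 8 genes that rose in both mutants. In Foxd1-Cre kidneys it was at 29.4, 32.6, 34.6, 39.0 and 38.3 FPKM. Wild types 1 to 6 ran from 6.76 to 7.77 FPKM with a median of 7.27, so the lowest mutant library was far above the highest wild type. Tnfrsf19 rose by 2.11 ± 0.07 (SE, adjusted p = 2.9e-09), a 4.77-fold higher mean. The Six2-Cre libraries had 18.0, 21.3 and 18.8 FPKM against 6.25, 9.26 and 8.73 FPKM. It rose there by 1.18 ± 0.15 (SE, adjusted p = 0.00503), a 2.40-fold higher mean. Of all genes tested in both comparisons, 2.71% rose in both.

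The sequence before the start of 3 of these genes is shown. They are Tnfrsf19 (the largest rise), Lgr4 (opposite changes in the mutants) and Rspo1 (the largest fall). Rnf43 also changed in opposite directions, and its windows are not printed. Each line gives the 250 bases before a start site in the direction of the gene, from RefSeq on GRCm38.p6. Capitals mark a match to CTTTGAA or CTTTGAT on either strand, the letters bound by the Tcf and Lef factors that carry beta-catenin to DNA.
Tnfrsf19, chr14:61046856-61047105, minus strand: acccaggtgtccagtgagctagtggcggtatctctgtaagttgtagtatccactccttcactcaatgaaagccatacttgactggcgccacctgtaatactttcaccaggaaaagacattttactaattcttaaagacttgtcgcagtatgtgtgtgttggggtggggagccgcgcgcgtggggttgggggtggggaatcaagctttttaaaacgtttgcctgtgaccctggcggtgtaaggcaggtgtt
Tnfrsf19, second start, chr14:61037988-61038237, minus strand: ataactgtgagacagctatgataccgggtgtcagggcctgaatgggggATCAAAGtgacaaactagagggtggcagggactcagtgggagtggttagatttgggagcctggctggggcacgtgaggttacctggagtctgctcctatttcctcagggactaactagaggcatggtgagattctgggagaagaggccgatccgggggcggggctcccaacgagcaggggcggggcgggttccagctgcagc
Lgr4, chr2:109917397-109917646, plus strand: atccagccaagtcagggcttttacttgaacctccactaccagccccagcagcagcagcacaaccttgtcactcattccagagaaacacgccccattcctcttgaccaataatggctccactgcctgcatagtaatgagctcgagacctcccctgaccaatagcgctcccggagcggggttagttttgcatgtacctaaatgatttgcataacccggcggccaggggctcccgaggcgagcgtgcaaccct
Rspo1, chr4:124986180-124986429, plus strand: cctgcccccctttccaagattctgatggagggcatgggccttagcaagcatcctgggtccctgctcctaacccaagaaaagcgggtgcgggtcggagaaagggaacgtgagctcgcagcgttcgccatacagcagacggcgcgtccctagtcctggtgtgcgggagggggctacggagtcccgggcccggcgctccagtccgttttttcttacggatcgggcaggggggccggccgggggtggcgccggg
RefSeq entries were matched for 6 of the 10 genes (Rspo1, Rspo4, Lgr4, Lgr6, Rnf43 and Tnfrsf19), with 8 windows in all. Of these, 1 held a motif: the window of the Tnfrsf19 start that lies further into the gene holds CTTTGAT on the strand opposite to the gene, beginning 202 bases before the start and printed as ATCAAAG. That window shares 120 bases with an exon of the noncoding gene Gm41168 on the opposite strand. A window of Rnf43 lies with all 250 bases in an annotated exon of Rnf43 itself. Either motif was found in 7.5% of all 32851 windows of this length. The GC content was 50.0% and 59.2% for the Tnfrsf19 windows, 55.6% for Lgr4 and 66.8% for Rspo1, beside a median of 52.4% over all windows. A match is a string of letters and not a measured site of binding, and the expression values do not show which Tnfrsf19 start was used.

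The changes of 6 of the 8 genes differed between the mutants, each in the same direction, with the Foxd1-Cre change above the Six2-Cre change. This difference was called higher at 5.76% and lower at 5.24% of the 13810 genes tested in both comparisons. It was 1.89 ± 0.13 (SE, adjusted p = 3.9e-06) for Rspo1 and 1.13 ± 0.08 (SE, adjusted p = 3.5e-07) for Lgr4. Rnf43 differed by 1.08 ± 0.14 (SE, adjusted p = 7.7e-05) and Rspo3 by 0.98 ± 0.12 (SE, adjusted p = 1.5e-04). For Tnfrsf19 the difference was 0.93 ± 0.16 (SE, adjusted p = 0.00538), and for Znrf3 0.78 ± 0.13 (SE, adjusted p = 5.5e-04). Lgr5 (0.24, adjusted p = 0.490) and Lgr6 (0.46, adjusted p = 0.143) did not pass. Lgr4 and Rnf43 are 2 of the 31 genes, or 0.224%, that rose in Foxd1-Cre kidneys and fell in Six2-Cre kidneys, and 0.666% of genes were called in opposite directions either way. Depth and genotype of the mutants cannot be told apart here, although each effect was measured against wild types of its own depth.

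The order of levels in wild-type kidneys depended on the set of libraries. In wild types 1 to 6 Rspo1 (36.6 ± 3.57 FPKM, SD, n = 6) led, ahead of Lgr4 (18.5 ± 1.29) and Rspo3 (15.9 ± 1.39), whose values overlapped. Tnfrsf19 (7.28 ± 0.469) and Znrf3 (5.69 ± 0.911) followed and overlapped, then Rnf43 (3.41 ± 0.435). Lgr5 (1.02 ± 0.270) and Lgr6 (0.919 ± 0.212) overlapped, as did Rspo2 and Rspo4 below them. In wild types 7 to 9 Lgr4 led at 26.6 ± 1.34 FPKM (SD, n = 3), ahead of Rspo1 (21.0 ± 2.80) and Rspo3 (18.3 ± 0.968), which overlapped. Between the sets of wild types, Rspo1 was lower in 7 to 9, while Lgr4, Lgr5 (2.11 ± 0.545 FPKM) and Znrf3 (13.2 ± 1.04 FPKM) were higher, all without overlap.

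Other receptors and partners of Wnt at the membrane were described from a list of 27 genes, of which 26 were tested. With active beta-catenin in the stroma 7 rose, 18 did not pass and only Kremen2 fell (-0.21), with a median change of 0.06. Of all genes tested there, 8.45% rose and 4.82% fell. For Six2-Cre the counts were 5 up (Fzd1, Fzd8, Fzd10, Gpc4 and Lrp5), 1 down (Sdc4) and 20 without a call, with a median of 0.02. The shares of all genes were 7.93% up and 5.84% down. Fzd10, a Frizzled receptor of the kind that Rnf43 and Znrf3 act on, had the largest rise of the list in both mutants. Its mean in Foxd1-Cre kidneys was 34.7 ± 3.90 FPKM (SD, n = 5), and the wild types had 3.04 ± 0.300 FPKM (SD, n = 6), a change of 3.14 ± 0.08 (SE, adjusted p = 2.6e-10). The means for Six2-Cre were 22.7 ± 1.69 FPKM and, in wild types 7 to 9, 3.46 ± 0.990 FPKM (SD, n = 3 each), a change of 2.43 ± 0.17 (SE, adjusted p = 9.7e-04). Fzd1 rose by 0.56 ± 0.08 (SE, adjusted p = 0.00788) in Six2-Cre kidneys.

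The heparan sulfate carriers of the list did not move alike. Sdc2, a syndecan, rose by 2.12 ± 0.08 (SE, adjusted p = 5.0e-09) in Foxd1-Cre kidneys, from 15.2 ± 1.10 FPKM (SD, n = 6) to 69.9 ± 8.86 FPKM (SD, n = 5). The means of Sdc2 for Six2-Cre were 15.7 ± 2.40 FPKM and, in wild types 7 to 9, 16.6 ± 0.751 FPKM (SD, n = 3 each), and its changes in the mutants differed by 2.21 ± 0.14 (SE, adjusted p = 7.1e-07). Sdc4, a further syndecan, fell by 0.70 ± 0.08 (SE, adjusted p = 0.00419) in Six2-Cre kidneys. Gpc4, a glypican, rose by 0.93 ± 0.10 (SE, adjusted p = 7.5e-05) and by 1.05 ± 0.11 (SE, adjusted p = 0.00278). Kremen1, a receptor for Dkk proteins, rose by 1.30 ± 0.07 (SE, adjusted p = 8.2e-08) in Foxd1-Cre kidneys and differed between the mutants by 1.19 ± 0.09 (SE, adjusted p = 1.9e-07). The coreceptor Lrp6 and the signal relays Dvl1, Dvl2 and Dvl3 did not pass the test in either mutant.

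**Figure D4:**
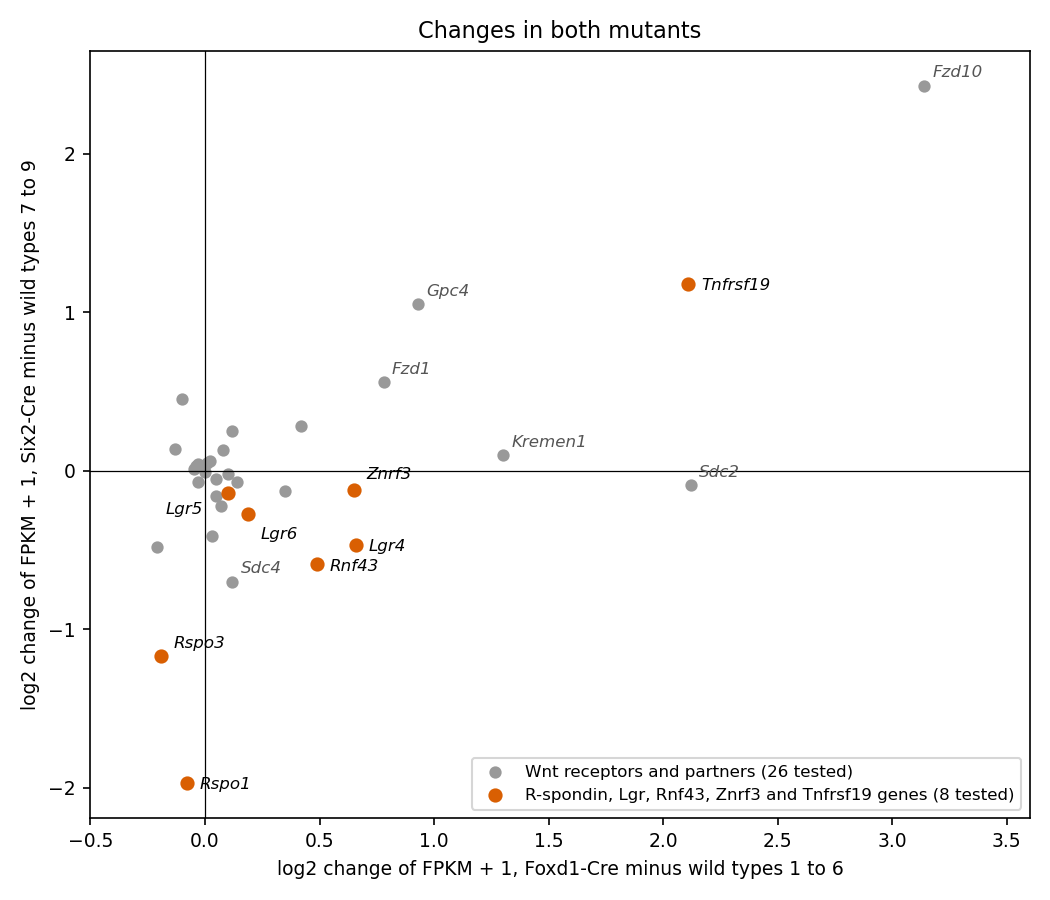
Log2 change in Foxd1-Cre kidneys (horizontal) against that in Six2-Cre kidneys (vertical) for the 8 genes tested of the module (orange) and 26 receptors and partners of Wnt (grey). Fzd10 and Tnfrsf19 lie at the upper right, and Lgr4 and Rnf43 lie at the lower right.

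Of a list of 15 known beta-catenin targets, 14 were tested, and 11 rose and 1 (Dkk1) fell in Foxd1-Cre kidneys. In Six2-Cre kidneys 9 rose and 2 (Ccnd1 and Myc) fell, with medians of 1.46 and 1.35 in the 2 comparisons. Over all genes tested, 8.45% and 7.93% rose and 4.82% and 5.84% fell. Apcdd1, an inhibitor of Wnt at the membrane, rose by 4.89 ± 0.10 and 2.86 ± 0.08 (SE), and Nkd1, an intracellular inhibitor, by 3.37 ± 0.09 and 1.88 ± 0.07 (SE). Dkk1, a secreted inhibitor bound by Kremen1, changed by -0.45 ± 0.10 (SE, adjusted p = 0.0133) in Foxd1-Cre kidneys and by 2.54 ± 0.07 (SE, adjusted p = 8.3e-05) in Six2-Cre kidneys. The rises of Tnfrsf19, at 2.11 and 1.18, were smaller than those of Apcdd1 and Nkd1. They lay above the median of the target list in Foxd1-Cre kidneys and below it in Six2-Cre kidneys. Rnf43 and Znrf3 rose by less than 1 in Foxd1-Cre kidneys, as did the listed targets Cdx1 (0.65) and Myc (0.19). Cdx1 was low, at 0.953 ± 0.188 FPKM (SD, n = 5) against 0.241 ± 0.0561 (SD, n = 6), where log2(FPKM + 1) understates the change.

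Markers of kidney cell types moved in the same libraries, where 8.45% of all genes tested rose and 4.82% fell for Foxd1-Cre. For Six2-Cre 7.93% rose and 5.84% fell. The summed FPKM of 12 stroma markers was 405 to 463 in Foxd1-Cre kidneys and 639 to 739 in wild types 1 to 6. Of the 12, 7 fell, 4 did not pass and Alx1 rose by 2.60. Most of the difference in the sum was Aldh1a2 (mean 82.1 against 232 FPKM) and Foxd1 itself (19.9 against 102 FPKM). The sum of 11 nephron progenitor markers was 211 to 221 in Six2-Cre kidneys, where 8 fell, against 406 to 465 in wild types 7 to 9. The sum of 14 ureteric bud markers was 234 to 253 against 307 to 323 there, and 7 fell. All 10 endothelial markers rose in Six2-Cre kidneys (240 to 251 against 120 to 143 FPKM). In Foxd1-Cre kidneys 3 of these rose and 0 fell (192 to 247 against 182 to 220 FPKM). The stroma sum was 703 to 739 in Six2-Cre kidneys against 640 to 680, where 4 of the 12 rose and 2 fell. In Foxd1-Cre kidneys the progenitor sum was 365 to 412 against 458 to 570, and 6 of the 11 fell. No stroma, progenitor or ureteric bud marker was listed at 0 in every library. The part of these shifts in the changes of the R-spondin, Lgr and ligase genes was not tested.

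Markers of other cells moved as well. Of 8 erythroid markers tested, 7 fell and 1 (Epor) rose in Six2-Cre kidneys, with a sum of 4173 to 5306 FPKM against 8403 to 10155. In Foxd1-Cre kidneys 3 of the 8 fell (3246 to 5960 against 4218 to 7667 FPKM). Of 9 macrophage markers 3 rose in Six2-Cre kidneys (37.1 to 38.8 against 21.2 to 32.5 FPKM), and 0 passed in Foxd1-Cre kidneys (42.2 to 52.5 against 35.6 to 57.5 FPKM). Of 10 committed nephron markers 4 fell in each mutant, while 2 rose in Foxd1-Cre and 3 in Six2-Cre kidneys. Of 8 neural markers tested, 6 rose and 0 fell in Six2-Cre kidneys (34.6 to 53.5 against 15.9 to 24.5 FPKM). In Foxd1-Cre kidneys the neural sum was 33.0 to 49.5 against 19.4 to 23.2 FPKM, and most of that difference was Tubb3, whose mean was 22.4 ± 3.30 FPKM (SD, n = 5) there and 1.93 ± 0.362 FPKM (SD, n = 6) in the wild types. Hand2 and Dbh rose there too, Stmn2 fell (4.83 ± 1.19 against 10.2 ± 0.591 FPKM), and the other 4 tested did not pass. Of 11 gonad and adrenal markers 3 were tested, and Amhr2 rose in Foxd1-Cre kidneys (14.2 ± 4.87 FPKM, SD, n = 5, against 0.983 ± 0.621, SD, n = 6). Gata4 was at 0.835 ± 0.555 against 0.220 ± 0.185 FPKM there (adjusted p = 0.0728). Foxl2, an ovarian marker under the filter, was at 0.145 to 0.283 FPKM in Foxd1-Cre kidneys and at most 0.0224 FPKM in wild types 1 to 6. Lhx9 was at 0.298 ± 0.277 against 0.134 ± 0.226 FPKM and Nr5a1 at 0.115 ± 0.0367 against 0.105 ± 0.0393 FPKM. The rest of this list (Star, Cyp11a1, Hsd3b1, Amh, Dmrt1 and Insl3) had means no higher in Foxd1-Cre kidneys than in wild types 1 to 6. Amh was at 0.325 ± 0.0769 against 0.377 ± 0.119 FPKM and Hsd3b1 at 0.0699 ± 0.0140 against 0.102 ± 0.0555 FPKM. Star was tested and did not pass (adjusted p = 0.981), so the list as a whole did not rise. The part of any of these markers in the changes of Tnfrsf19 and the other genes was not tested.

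The genes most like each member were those with the highest mean of 2 Pearson correlations of log2(FPKM + 1), over the 11 libraries of the Foxd1-Cre comparison and the 6 of the Six2-Cre comparison. Libraries of 1 comparison share their groups, so the values are descriptions. Tnfrsf19 was most like Lin7a (mean 0.991) and Tmem132c (0.990), which rose by 1.16 and 4.39 in Foxd1-Cre kidneys and by 1.74 and 3.00 in Six2-Cre kidneys. Lgr4 was most like Tead1 (0.966), a partner of Yap, and Alx1 (0.961), a stromal transcription factor gene. Alx1 rose by 2.60 in Foxd1-Cre kidneys and fell by 0.50 in Six2-Cre kidneys. Rspo3 was most like Gas1 (0.926), which encodes a coreceptor for hedgehog proteins, and Pkdcc (0.921). Rspo1 was most like Hs3st6 (0.943), a heparan sulfate sulfotransferase gene, and Zfp219 (0.906). Rnf43 was most like Gnal (0.933) and Lrig3 (0.928), and Znrf3 most like Trp53i11 (0.899) and Slc23a2 (0.888). Lgr6 had Ccpg1 (0.894) and Gtf3c4 (0.867), and Lgr5 had the lowest values, for Ecpas (0.792) and Dgke (0.784).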

How the data were processed

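RNA came from kidneys in RNAlater by the RNeasy Micro kit, with standard Illumina libraries, per the labels' protocols. The submitters' processing notes name bcl2fastq (2.17.1.14), Salmon and the build GRCm38. Values were deposited by the authors as FPKM in 1 table. The gene-level summary, annotation release, scaling and use of strand are not given in the sources used here. Of 24432 IDs, 24189 were matched to symbols in GENCODE M21. Depth was estimated from the smallest steps between values of single-transcript genes, so numbers of reads are approximate and cover counting error only.

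The filter asked for 1 FPKM or more in 3 or more of the 17 libraries (14014 genes) and a value above 0 in the libraries fitted. Then log2(FPKM + 1) was tested by limma (3.58.1, under R 4.3.3) using a trended variance, separately for 5 against 6 and 3 against 3 libraries. The difference of effects added squared errors with Satterthwaite degrees of freedom. The adjusted p-values cover all genes tested, and calls are two-sided at 0.05. The code was tested on simulated data, where the share of false calls stayed under 0.05 for each mutant but was above it for the difference of effects, so adjusted p-values of the difference may be too small. Small changes were recovered less often for Six2-Cre than for Foxd1-Cre. The members and lists were chosen with earlier results of these data known. Named genes were all members, up to 4 called genes of the partner and target lists per comparison by smallest p, the 2 genes most like each member and the nearest protein-coding neighbours. Kremen2, Fzd8, Lrp5, Cdx1, Aldh1a2 and the targets that fell were named after their values were seen. Cell type markers named singly, among them Epor, Tubb3, Stmn2, Hand2, Dbh, Amhr2, Gata4 and Foxl2, were also outside this rule. Overlapping genes in the annotation (antisense or intronic) make the values of Rspo1, Rspo3, Rspo4, Lgr5, Rnf43 and Tnfrsf19 uncertain. Of these overlapping genes, those in the table reached at most 0.0764 FPKM at Lgr5 and 0.578 FPKM at Rnf43. The alternatives were another pseudocount, no filter, other scalings, other wild types, a joint fit, a block and left-out libraries.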

Additional observations from a re-analysis of the deposited data

Results flagged for a closer look

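The changes in the mutants differed for 6 of the 8 genes tested, by a t test on the effects of the 2 separate limma fits. Foxd1-Cre minus Six2-Cre on the log2 scale was 1.89 for Rspo1, 1.13 for Lgr4 and 1.08 for Rnf43. It was 0.98 for Rspo3, 0.93 for Tnfrsf19 and 0.78 for Znrf3. The adjusted p-values of this difference may be too small. Lgr4 and Rnf43 rose in Foxd1-Cre kidneys and fell in Six2-Cre kidneys. Rspo1 and Rspo3 fell in Six2-Cre kidneys and did not pass the test in Foxd1-Cre kidneys. Among wild types 1 to 6, Rspo4 in wild type 2 stood apart from the others at 0.184 FPKM, with the next library at 0.0861 FPKM. Of 20 groups examined in this way chance flags about 1 in 20, and the Rspo4 values of this comparison stand for about 4 to 29 reads.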

How the results depend on the processing

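Against all 9 wild types, 1234 genes were called for Foxd1-Cre (1856 against wild types 1 to 6) and 6444 for Six2-Cre (1905 against wild types 7 to 9), with 12 of 26 receptor partners called for Six2-Cre in place of 6. There the sign turned for Rspo1 (0.18) and Lgr5 (-0.10) in Foxd1-Cre kidneys and for Lgr5 (0.28) and Znrf3 (0.61) in Six2-Cre kidneys, none of which was past the threshold. Lgr6 passed it in Six2-Cre kidneys (-0.30, adjusted p = 0.0352), Znrf3 lost its call in Foxd1-Cre kidneys (0.29) and Lgr4 in Six2-Cre kidneys (-0.14). One fit of 4 group means called 3669 genes for Six2-Cre. The cause of these shifts was not tested. Leaving out 1 library gave 1423 to 1922 genes for Foxd1-Cre, 907 to 1467 for Six2-Cre and 1036 to 1527 for the difference, with 4 to 5, 4 to 5 and 6 members called. For Six2-Cre the count was 1088, 1020 and 907 without mutant replicates 1 to 3, and 1099 and 1024 without wild types 7 and 8, in fits with fewer libraries. The sign of Lgr5 in Six2-Cre kidneys turned at 0.00 without wild type 8, with leave-one-out values from -0.22 to 0.00. Foxd1-Cre and wild-type libraries with the same replicate number, 1 to 5, had correlations of deviations from 0.022 to 0.099. Libraries with different numbers were not compared in this way, so these values cannot decide whether the numbers mark pairs. With the replicate block 1425 genes and 4 members were called. The SE was 0.04 with the block and 0.09 without it for Rnf43, and 0.09 and 0.07 for Rspo1. No paired analysis was possible for Six2-Cre because its replicates share no number with wild types 7 to 9. The pseudocount, the filter, the scaling and the variance trend changed no call of the 8 members. Rspo2, Rspo4, Lgr5 and Lgr6 rest on the fewest reads of the 10 genes, fewer in the Six2-Cre comparison than in the other.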

Other observations

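The nearest protein-coding genes on either side of the 10 genes gave 17 that could be tested. In Foxd1-Cre kidneys 2 rose and 1 fell, beside 8.45% and 4.82% of all genes tested. In Six2-Cre kidneys 2 rose and 2 fell, beside 7.93% and 5.84%. With so few neighbours, these counts cannot be told from the shares over all genes, and any link to the changes of the members was not tested. Kremen1, whose annotated span ends 14766 bases from that of Znrf3, rose by 1.30 ± 0.07 (SE) in Foxd1-Cre kidneys beside the rise of Znrf3 by 0.65, and changed by 0.10 ± 0.06 (SE, adjusted p = 0.318) in Six2-Cre kidneys. Xbp1, on the other side of Znrf3, rose in Six2-Cre kidneys (0.40 ± 0.08, SE, adjusted p = 0.0231) and changed by 0.23 ± 0.12 (SE, adjusted p = 0.244) in Foxd1-Cre kidneys. Gnl2, which lies 7486 bases from Rspo1 and encodes a nucleolar GTPase, fell by 0.32 ± 0.07 (SE, adjusted p = 0.0356) in Six2-Cre kidneys, where Rspo1 fell by 1.97. Rspo3 lies between Rnf146, which changed by 0.02 and 0.05 and did not pass, and Cenpw. Cenpw, a centromere protein gene 658702 bases from Rspo3, fell by 0.27 and 0.59. Angpt1, a ligand of the endothelial receptor Tek that lies 343817 bases from Rspo2, rose by 0.83 ± 0.07 and 1.06 ± 0.14 (SE). The neighbours of Lgr4, Rnf43 and Tnfrsf19 that could be tested did not pass: the changes of Ccdc34, which lies 3560 bases from Lgr4, were 0.14 and -0.13, and those of Supt4a, which lies 2013 bases from Rnf43, were 0.03 and -0.05.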
